A study of Mus musculus with 2 samples.

Results

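The transcription factor p53 (gene Trp53) was followed with 8 genes of its network in the facial prominences of mouse embryos: its relative Trp73, its inhibitors Mdm2 and Mdm4, and its targets Bax, Bbc3, Pmaip1, Ccng1 and Sesn2. Gene identifiers without version were named by their GENCODE symbol on GRCm38, and the 9 listed symbols were kept of 43346 gene rows, of which 21474 were protein-coding. All 9 were found in both libraries. RNA was sequenced in 2 libraries of embryonic facial prominence, the tissue that forms the jaws, nose and palate, at embryonic day 13.5 (E13.5). Both belong to 1 group of healthy embryos of strain B6NCrl with the sexes pooled, and the labels name no genotype, allele or treatment. They are numbered as biological replicates 1 and 2, with different biosamples and 1 donor identifier in common, so their spread covers biosample and library together and may be partly technical. The results are levels in this tissue and a comparison of the 2 libraries, and there is no contrast between conditions and no p-value.

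p53 is kept scarce in unstressed cells because the ubiquitin ligase Mdm2 marks it for degradation and Mdm4, a relative of Mdm2, binds it and holds back its activity. DNA damage and other stresses release p53, which binds a pair of decamer sequences in its target genes and raises their transcription. Some targets stop the cell cycle, some act on metabolism and repair, and Bax, Bbc3 (Puma) and Pmaip1 (Noxa) drive the mitochondrial route to apoptosis. Facial mesenchyme comes largely from the cranial neural crest, a cell population known to be sensitive to p53. Much of the control of p53 acts on the protein, which RNA levels do not show.

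The replicate 1 library held 28542452 expected counts on gene rows and replicate 2 held 22719352. All 8 facial mesenchyme markers and all 6 surface epithelium markers reached 1 TPM in each library, where TPM is a length-corrected abundance scaled to a library total of 1000000. Erythroid markers were also high, and summed to 15117 TPM (replicate 1) and 20423 TPM (replicate 2). Markers of 2 other organs set the libraries apart. The 10 liver markers summed to 15.6 and 389 TPM in replicates 1 and 2, with 2 and 10 of them at 1 TPM or more, and Fgb and Apob had no count in replicate 1. The 8 heart markers summed to 16.0 and 88.2 TPM, with 2 and 8 of them at 1 TPM or more, and Myl2 had no count in replicate 1. The 6 neuron markers reached 1 TPM in each library and summed to 100.4 and 129 TPM. In bulk tissue, fewer cells of a type and less RNA per cell cannot be told apart, and each level below is an average over all these cells.

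The promoters are shown first because p53 acts through sites in DNA. RefSeq start-site windows (GRCm38.p6, 250 bases before to 50 after the start) were found for 8 of the 9 genes, 12 windows in all, and none for Pmaip1. The p53 consensus site was searched with up to 2 mismatches over both of its 10-base arms and a spacer of up to 13 bases. No mismatch was allowed at the fixed C and G of each arm. A match lay in 3 of the 12 windows (Bax, Ccng1 and the internal start of Trp73). The same letters were found in 4.09% of 32851 promoter windows. The consensus reads the same on both strands, so 1 search covered both. In these stretches, 5′ to 3′ on the strand of the gene, the capitals mark the arms of each match; they come from chr7:45467040-45467148 (Bax, minus strand), chr11:40755412-40755531 (Ccng1, minus strand) and chr4:154097174-154097289 (Trp73, minus strand).
Bax: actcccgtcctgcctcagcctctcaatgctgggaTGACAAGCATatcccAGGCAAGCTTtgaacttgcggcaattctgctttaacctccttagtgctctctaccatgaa
Ccng1: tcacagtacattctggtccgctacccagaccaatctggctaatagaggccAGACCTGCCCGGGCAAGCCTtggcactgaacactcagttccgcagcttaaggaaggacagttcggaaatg
Trp73: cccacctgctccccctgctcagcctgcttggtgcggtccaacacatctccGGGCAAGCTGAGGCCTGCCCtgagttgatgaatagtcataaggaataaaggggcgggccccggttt
The Bax match spanned -216 to -192 from the start site, with 2 mismatches and a 5-base spacer. The Ccng1 match spanned -195 to -176, with 1 mismatch and no spacer. The Trp73 match spanned -66 to -47, with 2 mismatches and no spacer. A single arm without mismatch lay in 4 windows (Bax, Ccng1, Mdm2 at -186 to -177, and Trp53 at -75 to -66), against 8.36% of all windows, and the arms in Bax and Ccng1 are parts of the matches above. These are matches of letters and not measured binding sites, and windows of this length do not reach sites in introns.

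Common promoter letters, searched on both strands, differed among the genes. CCAAT lay in 5 of the 12 windows and in 37.4% of all windows, and GGGCGG, the GC box, in 7 and in 35.7%. The 7 windows with GGGCGG belong to 5 of the 8 genes and include all 3 of Bbc3, some of which overlap. TATAAA lay in 1 window, that of Trp53, and in 13.6% of all windows. The GC content ran from 43.0% in 1 of the 2 Mdm4 windows to 78.0% in 1 of the 3 Bbc3 windows. The 2 Trp73 windows stood at 77.7% (upstream, RefSeq start at 154139875) and 57.7% (internal start). The GENCODE upstream start given below for the transcripts, at 154140208, lies outside the upstream window.

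Trp53 mRNA was the highest of the 9, at 139.7 TPM in replicate 1 and 123 TPM in replicate 2 (131 ± 11.6, mean ± SD, n = 2, as for all such values below). The deposited 95% credibility intervals were 132 to 141 and 116 to 125. Such intervals cover uncertainty within a library, from read counts as well as read assignment, and not the spread between biosamples. The level lay above that of 95.1% of protein-coding gene rows. The gene lies at chr11:69580359-69591873 on the plus strand. The processed pseudogene Trp53-ps was listed at 0 in both libraries.

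Trp73 (chr4:154056253-154140208, minus strand), whose protein p73 binds similar DNA sites and acts in neural and epithelial development, stood at 4.32 and 3.49 TPM (3.91 ± 0.587). Its credibility intervals were 4.11 to 5.31 and 3.37 to 4.89. Within each library Trp53 was 32.3-fold and 35.3-fold higher than Trp73, and the intervals were far apart in both. The third gene of the family, Trp63, a regulator of surface epithelium, stood at 45.0 and 44.2 TPM, so that the mean log2 ratio of Trp53 to Trp63 was 1.56 ± 0.11. The order Trp53, Trp63, Trp73 held in both libraries.

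The inhibitors were close to each other. Mdm2 (chr10:117688875-117710758, minus strand) stood at 37.0 and 38.7 TPM (37.8 ± 1.20). Mdm4 (chr1:132959484-133030561, minus strand) stood at 31.1 and 35.5 TPM (33.3 ± 3.15). The interval of Mdm2 lay above that of Mdm4 in replicate 1 (34.2 to 39.9 against 28.0 to 33.9) and overlapped it in replicate 2 (35.9 to 41.4 against 32.4 to 38.8). Their mean log2 ratio was 0.19 ± 0.09, and the order was not separate in both libraries. Each inhibitor was below Trp53 in both libraries, by a mean log2 ratio of -1.80 ± 0.17 for Mdm2 and -1.98 ± 0.26 for Mdm4. The pseudogene Mdm4-ps was listed at 0 and 0.030 TPM.

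Among the apoptotic targets, Bax stood far above the BH3-only genes. Bax, whose product opens the outer mitochondrial membrane, was at 130.1 and 105 TPM (118 ± 17.5) and is annotated at chr7:45461697-45466898 on the minus strand. Pmaip1, whose BH3-only product binds Mcl1, was at 6.74 and 11.2 TPM (8.98 ± 3.17) and lies on chromosome 18. Bbc3, whose BH3-only product binds all the main Bcl2-type guardians, was at 3.60 and 3.98 TPM (3.79 ± 0.269) and lies at chr7:16308393-16318205 on the plus strand. The Bbc3 level rested on 104 and 95 expected counts, the fewest of the 9 genes, and its intervals were 2.78 to 4.76 and 3.13 to 5.35 TPM. Bax was 36.1-fold and 26.5-fold above Bbc3. Bbc3 was below Pmaip1 in both libraries, with intervals apart in both, but the log2 ratio of -1.20 ± 0.42 was less than 3 times its SD. Bax shares 192 exon bases with the gene model Gm45808 on the same strand, for which no value is given here.

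Ccng1 encodes cyclin G1, which recruits a phosphatase to Mdm2, and stood at 27.1 and 30.3 TPM (28.7 ± 2.28; chr11:40748552-40755311, minus strand). Sesn2 encodes sestrin 2, a stress-induced inhibitor of growth signalling through mTORC1, and stood at 6.79 and 6.67 TPM (6.73 ± 0.0849; chr4:132492032-132510501, minus strand). Ccng1 was 3.99-fold and 4.55-fold above Sesn2.

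Each of the 9 genes reached 1 TPM in both libraries, as did 60.9% of protein-coding gene rows. Their median was 28.7 TPM (27.1 and 30.3 in the 2 libraries), against 4.68 TPM over all protein-coding rows and 18.9 TPM over those at 1 TPM or more in both. In the order of means, Bax lay apart from Mdm2 below it, Mdm4 from Ccng1, Ccng1 from Pmaip1 and Sesn2 from Trp73, with intervals that did not overlap in either library. The gap between Mdm4 and Ccng1 in replicate 1 was narrow, with intervals that met at 28.0 TPM. The other neighbours were not separate in both libraries. Trp53 lay apart from Bax only in replicate 2, Pmaip1 from Sesn2 only in replicate 2, and Trp73 and Bbc3 overlapped in both and changed places.

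**Figure D1:**
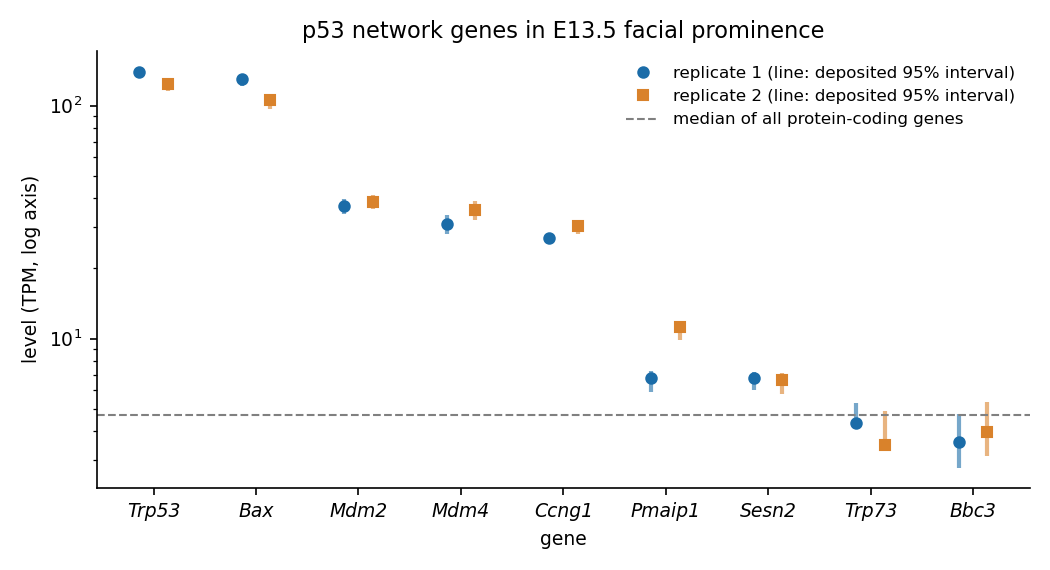
Level of each of the 9 genes in TPM on a log axis, with 1 point per library and the deposited 95% credibility interval as a line; the dashed line is the median of all protein-coding gene rows (4.68 TPM). Trp53 and Bax sit above 100 TPM, Mdm2, Mdm4 and Ccng1 between 27.1 and 38.7 TPM, and the other 4 genes at 11.2 TPM or below.

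The counterparts of the targets placed them in their families. The effector Bak1, which does the same work as Bax, was at 3.26 and 4.44 TPM, so that Bax was 39.9-fold and 23.7-fold higher. The guardians that hold Bax in check were Bcl2l1 (Bcl-xL) at 75.3 and 78.0 TPM, Mcl1 at 35.2 and 34.3 TPM and Bcl2 at 17.8 and 22.4 TPM. Bax was above each of them in both libraries, with mean log2 ratios of 0.61 ± 0.25 to Bcl2l1, 1.75 ± 0.19 to Mcl1 and 2.55 ± 0.45 to Bcl2. The ratio to Bcl2l1 was under 3 times its SD. Pmaip1 was below its partner Mcl1, by log2 ratios of -2.39 and -1.61 in replicates 1 and 2. The BH3-only gene Bcl2l11 (Bim) stood at 17.6 and 15.9 TPM, above Bbc3 in both libraries (mean log2 ratio of Bbc3 to Bcl2l11 -2.14 ± 0.20).

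Each gene set beside the other 2 targets was higher in both libraries. Ccng2, the second cyclin G gene, was at 54.1 and 66.9 TPM against 27.1 and 30.3 for Ccng1 (log2 ratio of Ccng1 to Ccng2 -1.07 ± 0.10). Cdkn1a (p21), the cell cycle inhibitor and best known p53 target, was at 68.2 and 57.2 TPM (log2 ratio of Ccng1 to Cdkn1a -1.12 ± 0.29). Sesn1 was at 27.8 and 33.2 TPM and Sesn3 at 18.6 and 21.2 TPM, and Sesn2 was below both, with log2 ratios of -2.17 ± 0.20 and -1.56 ± 0.15. Of the 18 pairs compared, 17 had intervals apart in the same order in both libraries, and for 15 of those 17 the mean exceeded 3 SDs between libraries.

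**Figure D2:**
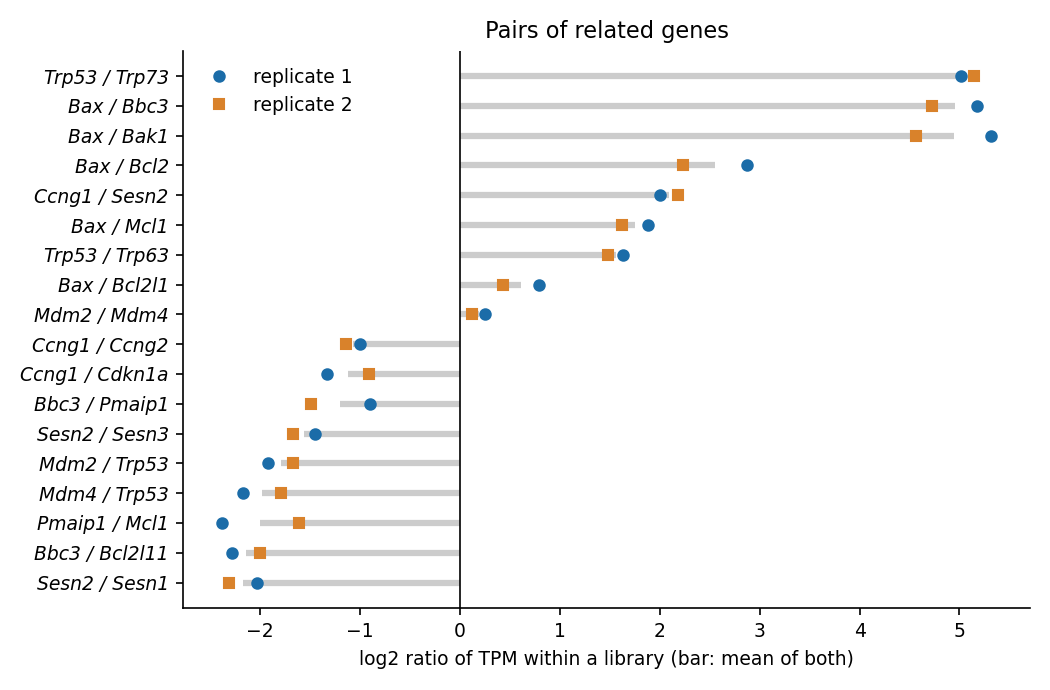
Log2 ratio of TPM for 18 pairs of related genes within each library (points) and the mean of both libraries (bars), with positive values where the first gene is higher. Trp53 to Trp73, Bax to Bbc3 and Bax to Bak1 lie near 5, Mdm2 to Mdm4 lies at 0.19, and the points of both libraries fall on the same side of 0 in every pair.

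The transcript tables gave 44 transcripts of the 9 genes, and in all 9 genes 1 transcript led in replicate 1 and in replicate 2 alike. Bax, Pmaip1 and Sesn2 have 1 annotated transcript, so their agreement was fixed in advance, and Ccng1 had 1 of 2 above 0. For Trp53, transcripts annotated as coding held 95.3% and 96.9% of the gene's TPM. Mouse p53 is known to have an alternatively spliced form with a different carboxy-terminal end, in which the last exon begins at an earlier acceptor. In Trp53-202 that exon begins at position 69591254 of chromosome 11, 96 bases before its start in Trp53-201 (69591350), and the coding length falls from 387 to 378 codons. The coding ends of both forms show how they part: 30 shared bases of the exon before are in lower case, and capitals mark the coding bases of the last exon, 79 in Trp53-201 (chr11:69591350-69591428) and 52 in Trp53-202 (chr11:69591254-69591305, both plus strand, GRCm38).
Trp53-201: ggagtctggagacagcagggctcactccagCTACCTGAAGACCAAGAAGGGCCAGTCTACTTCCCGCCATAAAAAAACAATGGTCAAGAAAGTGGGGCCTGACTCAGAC
Trp53-202: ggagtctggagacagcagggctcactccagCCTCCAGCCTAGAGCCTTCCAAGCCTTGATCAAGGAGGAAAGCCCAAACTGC
The regular last exon (Trp53-201 and Trp53-203) took 76.6% and 81.0% of the gene's TPM (78.8% ± 3.11). The alternative last exon (Trp53-202 and Trp53-206) took 18.7% and 15.9% (17.3% ± 1.99), or 26.1 and 19.6 TPM from 953 and 545 expected counts. Trp53-203 is 1 base shorter than Trp53-201 and its sequence lies wholly within it, so these transcripts cannot be separated. The deposited intervals show this: that of Trp53-201 ran from 0.0429 to 101 TPM in replicate 1 and from 15.8 to 93.5 TPM in replicate 2, and both leave out the listed values of 103 and 99.0 TPM.

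Trp73 is known to make full-length proteins from an upstream start and, from an internal start, shorter ones that lack the amino-terminal transactivation domain and can block p53. The annotated starts lie 43.0 kb apart on chromosome 4 (154140208 and 154097173). The first coding bases of a transcript of each kind are given here, with its own bases in capitals (39 in Trp73-205, from the internal start, and 183 in Trp73-204, from the upstream start) and the first 30 bases of the shared exon chr4:154081329-154081571 (minus strand) in lower case.
Trp73-205: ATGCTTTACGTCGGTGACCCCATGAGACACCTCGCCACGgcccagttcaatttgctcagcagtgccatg
Trp73-204: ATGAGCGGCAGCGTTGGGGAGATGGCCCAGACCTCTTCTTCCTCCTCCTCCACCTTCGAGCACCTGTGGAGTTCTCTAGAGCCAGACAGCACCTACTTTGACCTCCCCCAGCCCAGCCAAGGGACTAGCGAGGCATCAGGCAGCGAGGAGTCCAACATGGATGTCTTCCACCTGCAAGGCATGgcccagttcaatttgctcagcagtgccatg
Internal-start transcripts took 100% of the gene's TPM in replicate 1 and 85.9% in replicate 2, from 425 and 225 expected counts, and all of it was assigned to Trp73-205. Upstream-start transcripts had no count in replicate 1 and 39.2 expected counts (0.49 TPM, 14.1%) in replicate 2, all of them assigned to Trp73-204. Both kinds share most of their exons, so the split rests on the few reads over the first exons. The deposited interval of Trp73-204 reached up to 0.364 TPM in replicate 1 and ran from 0.0407 to 1.10 TPM in replicate 2, so the libraries overlap in this form. The antisense gene Trp73os overlaps 280 exon bases of Trp73 and had 0 and 2 expected counts.

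The inhibitor genes had more transcripts annotated as non-coding. For Mdm2, coding transcripts took 59.2% and 65.1%, those annotated as targets of nonsense-mediated decay 10.6% and 17.1%, and those with a retained intron 21.3% and 11.9%. The leading transcript Mdm2-201 took 56.7% and 60.6%, and Mdm2-209, annotated as a decay target, 10.6% and 17.1%. Mdm2 is known to have a p53-responsive second promoter in its first intron. Transcripts with the first exon of Mdm2-201 took 74.7% and 75.2%, and the 3 whose annotated start lies in intron 1 or exon 2 took 19.5% and 19.2%, but annotated starts are not measured ones.

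For Mdm4, coding transcripts took 48.6% and 54.4%, or 15.1 and 19.3 TPM of the gene's 31.1 and 35.5. Mdm4-210 led with 44.2% and 46.4%. Transcripts with a retained intron took 41.3% and 38.2%, among them Mdm4-205 (12.8% and 17.7%) and Mdm4-211 (14.2% and 13.5%). Skipping of a 68-base coding exon is known to give a truncated Mdm4. The transcript without that exon (133004654 to 133004721 on chromosome 1), Mdm4-214, took 0.933% and 0.479%, from 16.6 and 7.35 expected counts. These shares depend on the unit, because a short transcript has a higher TPM for the same number of reads. By expected counts, coding transcripts took 85.0% and 85.7% of Mdm4 and those with a retained intron 11.6% and 12.3%. For Mdm2, coding transcripts took 77.1% and 75.4% by counts, and those with a retained intron 8.74% and 5.90%. Restricted to coding transcripts, Mdm2 stood at 21.9 and 25.2 TPM, above the coding Mdm4 level in both libraries.

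Bbc3-201 took 65.0% and 74.9% of the Bbc3 TPM, and Bbc3-203, annotated with a retained intron, 29.2% and 25.1%. The latter rested on 17.4 and 12.6 expected counts, and its deposited intervals began near 0.

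**Figure D3:**
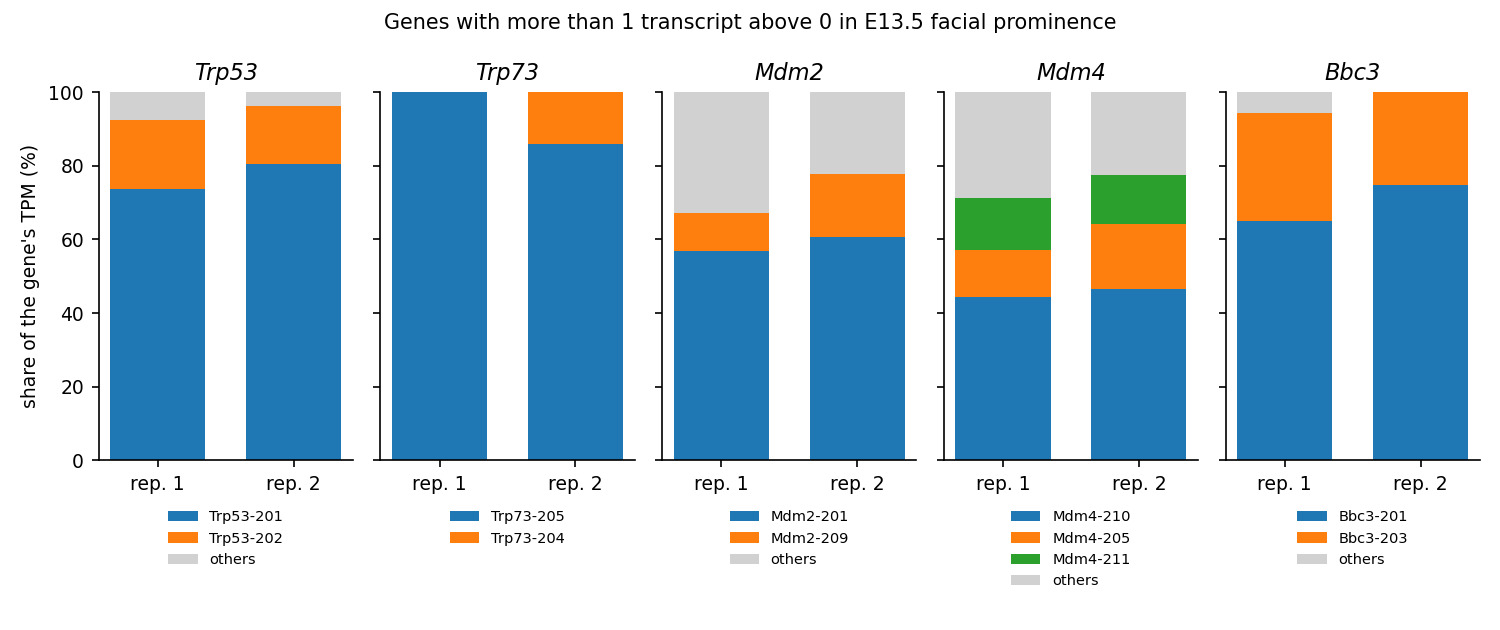
Share of each gene's TPM by transcript in each library, for the 5 genes with more than 1 transcript above 0; transcripts with a mean share of 10% or more are named, as is Trp73-204, and the rest are grey. The blue leading transcript is the largest part of every bar, and for Mdm4 it takes 44.2% and 46.4%.

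The wider pathway was described with lists of genes that are not among the 9. Of 28 other p53 target genes, 26 reached 1 TPM in both, with a median of 16.2 TPM. The highest were Rps27l, a ribosomal protein-like gene, at 571 and 558 TPM, Plk2, a kinase of the cell cycle, at 156 and 145 TPM, and Perp, a component of epithelial junctions, at 146 and 143 TPM. The lowest was the stress cytokine Gdf15, at 0.11 and 0.17 TPM from 3 and 4 counts. Among 22 regulators of p53, 21 reached 1 TPM in both, with a median of 24.9 TPM. They were led by Rpl11 (402 and 337 TPM), a ribosomal protein that can bind Mdm2, followed by Trp53bp1 (71.0 and 72.9 TPM), a DNA damage adaptor, and Rpl5 (57.9 and 62.7 TPM), which acts with Rpl11. Cdkn2a, which encodes the Mdm2 inhibitor Arf, was the lowest, with 1 count in replicate 1 and none in replicate 2.

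Cell death genes made up 3 lists. Among 8 Bcl2 family guardians and effectors, 6 reached 1 TPM in both libraries (median 12.0 TPM). Bcl2l1 was the highest. Mcl1 came next by mean, close to the effector Bok at 36.1 and 33.1 TPM. The intervals of Mcl1 and Bok overlapped in both libraries, and Bok was above Mcl1 in replicate 1 only. Bcl2l10 had no count, which allows up to 3 counts in each library. Of 8 other BH3-only genes, 7 reached 1 TPM (median 14.8 TPM), with Bnip3l at 335 and 333 TPM and Bnip3 at 74.9 and 77.1 TPM, both known from mitophagy, and Bad at 59.2 and 63.2 TPM. Hrk was the lowest at 0.16 and 0.13 TPM. All 16 genes of the caspase pathway reached 1 TPM (median 32.2 TPM), from the adaptor Fadd at 7.18 and 7.69 TPM to Birc5, a mitotic protein of the inhibitor of apoptosis family, at 259 and 251 TPM. Diablo, which releases caspases from their inhibitors, stood at 86.7 and 95.3 TPM.

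**Figure D4:**
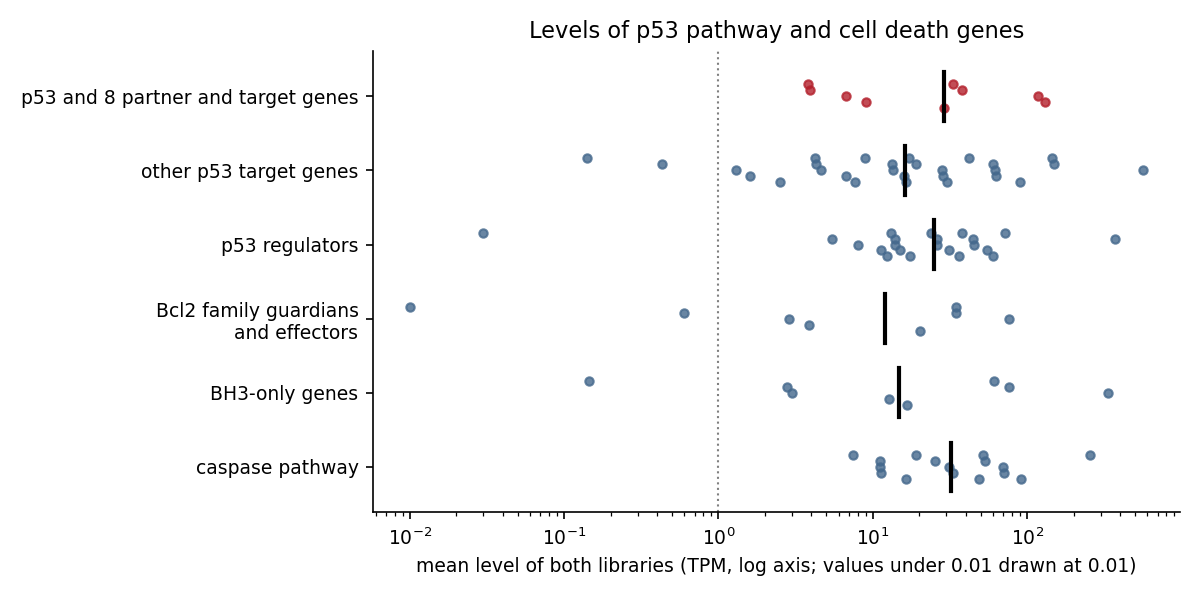
Mean TPM of both libraries for the 9 genes (red) and for the genes of 5 lists of the p53 pathway and of cell death (blue), on a log axis, 1 point per gene, with the median of each list as a bar. The medians run from 12.0 TPM for the Bcl2 family guardians and effectors to 32.2 TPM for the caspase pathway, with 28.7 TPM for the 9 genes.

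Between the libraries, 1 of the 9 genes passed 1.5-fold, against 12.8% of 17707 gene rows with a mean count of 10 or more. Low counts vary more, and of the 12730 rows with a mean count of 100 or more 3.18% passed, against 1 of the 8 genes that reach this count (all but Bbc3). This gene was Pmaip1, the 1 of 9 that passed in the upward direction, which 8.76% of rows did. Pmaip1 had 363 expected counts in replicate 1 and 461 in the smaller replicate 2 library, and after TMM scaling was 1.55-fold higher in replicate 2 (exact 95% counting interval 1.35 to 1.79). The interval covers counting error only and reaches below 1.5-fold. Liver and heart markers were higher in replicate 2 as well (24.9-fold and 5.50-fold in summed TPM). So were the summed TPM of the erythroid markers (1.35-fold) and of the neuron markers (1.28-fold). After TMM scaling, 6 of 7 erythroid markers and 6 of 6 neuron markers were higher in replicate 2. Of the facial mesenchyme markers 2 of 8 were higher, and of the surface epithelium markers 3 of 6. Their summed TPM was 0.926-fold and 0.961-fold that of replicate 1. The part of these marker groups in the Pmaip1 difference was not tested.

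Under TMM scaling, 5 of the 9 genes were higher in replicate 2 and 4 were lower, and under scaling to the spike-in total all 9 were higher. Bax was lower in replicate 2 by TMM (0.756-fold, 0.705 to 0.810), as were Trp73 (0.761-fold, 0.650 to 0.889), Trp53 (0.837-fold, 0.801 to 0.874) and Sesn2 (0.916-fold, 0.797 to 1.05), and all 4 turned with spike-in scaling. Mdm2 (1.10-fold, 1.03 to 1.17), Mdm4 (1.12-fold, 1.06 to 1.19), Bbc3 (1.12-fold, 0.837 to 1.49) and Ccng1 (1.04-fold, 0.977 to 1.11) were higher under both. The counting interval, which leaves out the spread between biosamples, excluded 1-fold for 6 of the 9 genes and for 39.4% of all 17707 rows. The median absolute log2 ratio was 0.16 over the 9 genes and 0.15 over all 17707 rows. Neither comparison was matched for depth: 8 of the 9 genes have a mean count of 100 or more, while the rows start at 10. Counting intervals are narrower at higher counts. Spike-in scaling moved the median log2 ratio of all rows from -0.02 to 0.54, and the rows past 1.5-fold from 1551 higher and 707 lower in replicate 2 to 7401 and 187. It adds nearly the same amount to the log2 ratio of every gene.

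**Figure D5:**
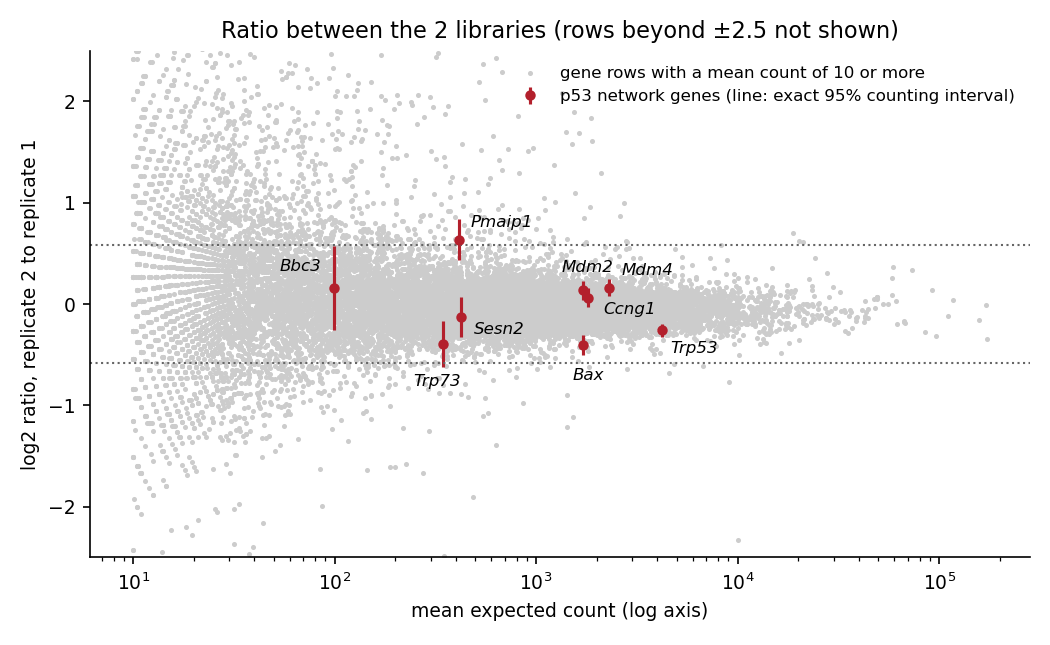
Log2 ratio of replicate 2 to replicate 1 after TMM scaling (y axis) against the mean expected count on a log axis (x axis), for gene rows with a mean count of 10 or more (grey) and the 9 genes (red, with exact 95% counting intervals); dotted lines mark 1.5-fold. Pmaip1 at 0.63 lies just above the upper line, and the other 8 lie between the lines.

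In the pathway lists, among genes with a mean count of 10 or more, 1.5-fold was passed by 1 of 27 other target genes (Eda2r, 19 and 27 counts), 1 of 21 regulators (Cop1, 697 and 875 counts), and by none of 6 guardians and effectors, 8 BH3-only genes and 16 caspase pathway genes. With a mean count of 100 or more, 1 of 72 distinct list genes passed, beside 3.18% of all such rows. Eda2r and Cop1 were both higher in replicate 2 and are named after their values were seen. The median log2 ratios of the 5 lists ran from -0.11 to -0.0010, against -0.02 over all rows.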

How the data were processed

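The starting RNA of each library was 10 ng of molecules over 200 nt, per the labels. The assembly is mm10 and the annotation GENCODE M4, per the deposited notes. The aligner, the quantifier and strandedness are not given in the sources used here. The 9 genes, the gene lists, the pairs and the rule for named genes were chosen with earlier results of these data known. The rule took all 9 genes, every gene of the 18 pairs, the 3 highest and the lowest gene of each list, and transcripts with a mean share of 10% or more. 1 gene that the rule took is not reported here.

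The authors' expected counts are estimates of the reads of each gene or transcript, per the file headers. The deposited TPM values are abundances scaled to 1000000 over all rows, spike-ins included. The deposited credibility bounds were handled as signal values on the TPM scale. The deposited FPKM values divide fragments by length and by the library's fragments. The deposited isoform percent gives each transcript's share of its gene. Spike-in rows took 6.27% and 4.45% of the counts in replicates 1 and 2, rows named by a number only 0.000171% and 0.000151%, and both stayed out of library sizes. In TPM, spike-in rows took 13.4% and 9.68% of the totals, and the TPM levels and their SDs include this difference.

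GENCODE M21 on GRCm38 supplied symbols, gene types and positions (42462 of 43346 identifiers matched), and 40 of the 44 transcripts have the same length there. Transcript shares were computed from transcript TPM. Pairs were called apart where credibility intervals did not overlap in either library. Library ratios used expected counts rounded to whole numbers, TMM scaling in edgeR 4.0.16 (R 4.3.3) and a prior count of 1, with exact Clopper-Pearson 95% intervals from scipy 1.17.1 scaled by library size. The ratio step was tested on simulated data. Alternatives were other thresholds, units and scalings, among them DESeq2 1.42.0 size factors. Promoter letters were read from RefSeq windows. The planned comparison of protein sequences was not run.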

Additional observations from a re-analysis of the deposited data

How the results depend on the processing

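The 9 of 9 genes at 1 TPM or more stayed 9 at 0.5 TPM, at 1 FPKM, at 10 expected counts and without spike-ins in the TPM total, and was 7 at 5 TPM. It was 9 to 9 with either library left out. The median over the 9 genes was 19.7 in FPKM and 32.5 in TPM without spike-ins, and ran from 27.1 to 30.3 with a library left out. Without spike-ins in the TPM total, the levels of 6 genes moved by more than their SD and those of 3 did not. The Trp53 level went from 131 to 149 TPM. The pairs with separate intervals numbered 17 to 18 with a library left out. On expected counts not divided by length, which favour long transcripts, 5 mean log2 ratios turned: Mdm2 to Mdm4 -0.44, Bax to Bcl2 -0.21, Bax to Bcl2l1 -0.91, Bax to Mcl1 -0.36 and Ccng1 to Cdkn1a 0.67. The leading transcripts agreed in 9 of 9 genes also by expected counts, by deposited isoform percent and among coding transcripts. The genes past 1.5-fold numbered 5 with spike-in scaling, none (0) passed 2-fold, and the count was 1 under DESeq2 size factors, gene-row totals, deposited TPM, other count filters and a prior count of 5. With spike-in scaling the log2 library ratio turned to 0.30 for Trp53, 0.16 for Trp73, 0.16 for Bax and 0.43 for Sesn2; the cause was not tested. No paired analysis was possible because there is 1 group. The counts of Bbc3 and of the Trp73 upstream-start transcripts limit what can be read from them.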
